A study of Mus musculus with 75 samples.

Results

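The results below concern 10 genes of the interleukin 2 (IL2) and interleukin 7 (IL7) receptors and their STAT5 signalling arm, out of 53465 gene identifiers counted in mouse CD4 effector T cells. They were chosen by name, as the receptor chains Il2ra, Il2rb, Il2rg and Il7r, the kinase Jak3, the transcription factors Stat5a and Stat5b, and the feedback inhibitors Cish, Socs1 and Socs2. All 10 passed the filter on low counts in both assays. The effector cells (CD4+CD25-) came from spleen and lymph nodes of 9 mice, and the study asked, by its title, how regulatory T cells (Tregs) act on translation during CD4 T cell activation. In the RiboTag assay, 5 mice from a cross of B6N.129-Rpl22tm1.1Psam/J with B6.Cg-Tg(Cd4-cre)1Cwi/BfluJ carried a hemagglutinin-tagged ribosomal protein in cells that express Cd4-driven Cre. Each RiboTag mouse gave a culture with anti-CD3/CD28 beads and Tregs, a culture with beads alone (stimulated) and a culture rested in IL7, and RNA was sequenced before (Input) and after (IP) precipitation of the tagged ribosomes. In the SPEED assay, 4 mice of strain B6.SJL-PtprcaPepcb/BoyJ gave beads plus HHT for 10 min before harvest (no culture from mouse 4), beads plus Tregs, beads alone, and untreated cultures. Sucrose fractionation split each of these lysates into polysomal RNA (Pol) and subpolysomal RNA (SubPol), sequenced beside Input. The Tregs were CD4+YFP+ cells of Foxp3YFP-Cre mice, which carry no tagged ribosomes by these labels. All cultures shared the same medium. Cultures without Tregs were matched for density with extra effector cells, in some cases CD4+YFP-CD45.1+ cells of Foxp3YFP-Cre mice, and the labels do not say which. No source used here gives the number of Tregs or the culture times, and whether Input and SPEED libraries of co-cultures hold Treg RNA was not tested.

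IL2 and IL7 are cytokines that keep T cells alive and dividing, and their receptors share the common gamma chain encoded by Il2rg. Il7r is typical of resting naive and memory T cells, whereas Il2ra, the chain that raises the affinity of the receptor for IL2, is induced on activation and is carried constitutively by Tregs. Binding of either cytokine activates the kinases JAK1 and JAK3, which phosphorylate STAT5A and STAT5B, and these enter the nucleus and switch on targets that include Cish and Socs2, whose products damp the same pathway.

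The tables list the receptor genes as Il2ra (ENSMUSG00000026770, chr2:11642792-11693194), Il2rb (ENSMUSG00000068227, chr15:78479256-78511621), Il2rg (ENSMUSG00000031304, chrX:101264385-101268255) and Il7r (ENSMUSG00000003882, chr15:9506159-9529941), with coordinates from RefSeq's GRCm38.p6. The kinase gene is Jak3 (ENSMUSG00000031805, chr8:71676383-71690577), and the transcription factor genes are Stat5a (ENSMUSG00000004043, chr11:100859351-100885169) and Stat5b (ENSMUSG00000020919, chr11:100780731-100859004). The inhibitor genes are Cish (ENSMUSG00000032578, chr9:107296659-107302784), Socs1 (ENSMUSG00000038037, chr16:10783808-10785536) and Socs2 (ENSMUSG00000020027, chr10:95383903-95417321).

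Promoter windows of 300 bases (250 before and 50 from the transcript start) were held for 8 of the 10 genes in a RefSeq table of GRCm38.p6. They were searched for TTCNNNGAA, the palindromic motif that STAT proteins bind, which reads the same on both strands, and for GTAAACA, a forkhead motif, on both strands. The STAT motif stood in the windows of Cish and Il7r, and in 8.3% of all 32851 windows of the same length. GTAAACA stood in none of the 8, against 3.65% of all windows. Both windows with a STAT motif are shown because these genes moved in opposite directions below; capitals mark the motif. The Cish window (chr9:107296409-107296708, plus strand) holds it at base 1 from the start as TTCCTGGAA and at base 12 as TTCTTGGAA, and the Il7r window (chr15:9529827-9530126, minus strand) holds it 142 bases before the start as TTCAGGGAA.
Cish: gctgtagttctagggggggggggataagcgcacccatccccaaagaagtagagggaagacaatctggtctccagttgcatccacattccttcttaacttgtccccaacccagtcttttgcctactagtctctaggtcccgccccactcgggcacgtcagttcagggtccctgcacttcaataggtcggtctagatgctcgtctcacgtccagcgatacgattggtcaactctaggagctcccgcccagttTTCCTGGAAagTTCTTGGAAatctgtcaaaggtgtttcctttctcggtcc
Il7r: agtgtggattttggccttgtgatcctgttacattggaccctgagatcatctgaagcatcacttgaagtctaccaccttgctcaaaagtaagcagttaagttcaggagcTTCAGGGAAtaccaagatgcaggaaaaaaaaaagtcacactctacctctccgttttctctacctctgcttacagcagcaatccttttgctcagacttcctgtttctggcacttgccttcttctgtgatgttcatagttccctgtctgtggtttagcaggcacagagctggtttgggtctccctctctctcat
A match describes these letters and is not evidence of binding in these cells. The transcript start of the Il7r window lies inside the gene span listed above, not at its edge.

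The RiboTag libraries held 1658481 to 2824875 counts and the SPEED libraries 1566501 to 4621104. Levels are CPM, counts scaled to a common library size after TMM scaling, listed by mouse from 1 upward, and differences were tested with edgeR's quasi-likelihood test across all 10751 (RiboTag) or 12428 (SPEED) genes that passed the filter. A gene rose or fell below only if its adjusted p was under 0.05. The IL7-rested cultures of RiboTag mice 1 and 2 stood apart from those of mice 3 to 5 for Il2ra and Cish. The stimulation effects of these genes are given with and without those mice. The split is seen in the values of these same genes, so p-values without those mice are no independent support. All groups of an assay share 1 estimate of the spread per gene, so rested cultures also enter the SE of the RiboTag Treg tests. The untreated SubPol library of SPEED mouse 3 detected 12851 genes, where the other 3 detected 13556 to 13735. Markers of CD4 T cells and Tregs were not analysed here, because the tables name genes by identifier alone. In bulk RNA, fewer cells of a type and less RNA per cell cannot be told apart.

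**Figure D1:**
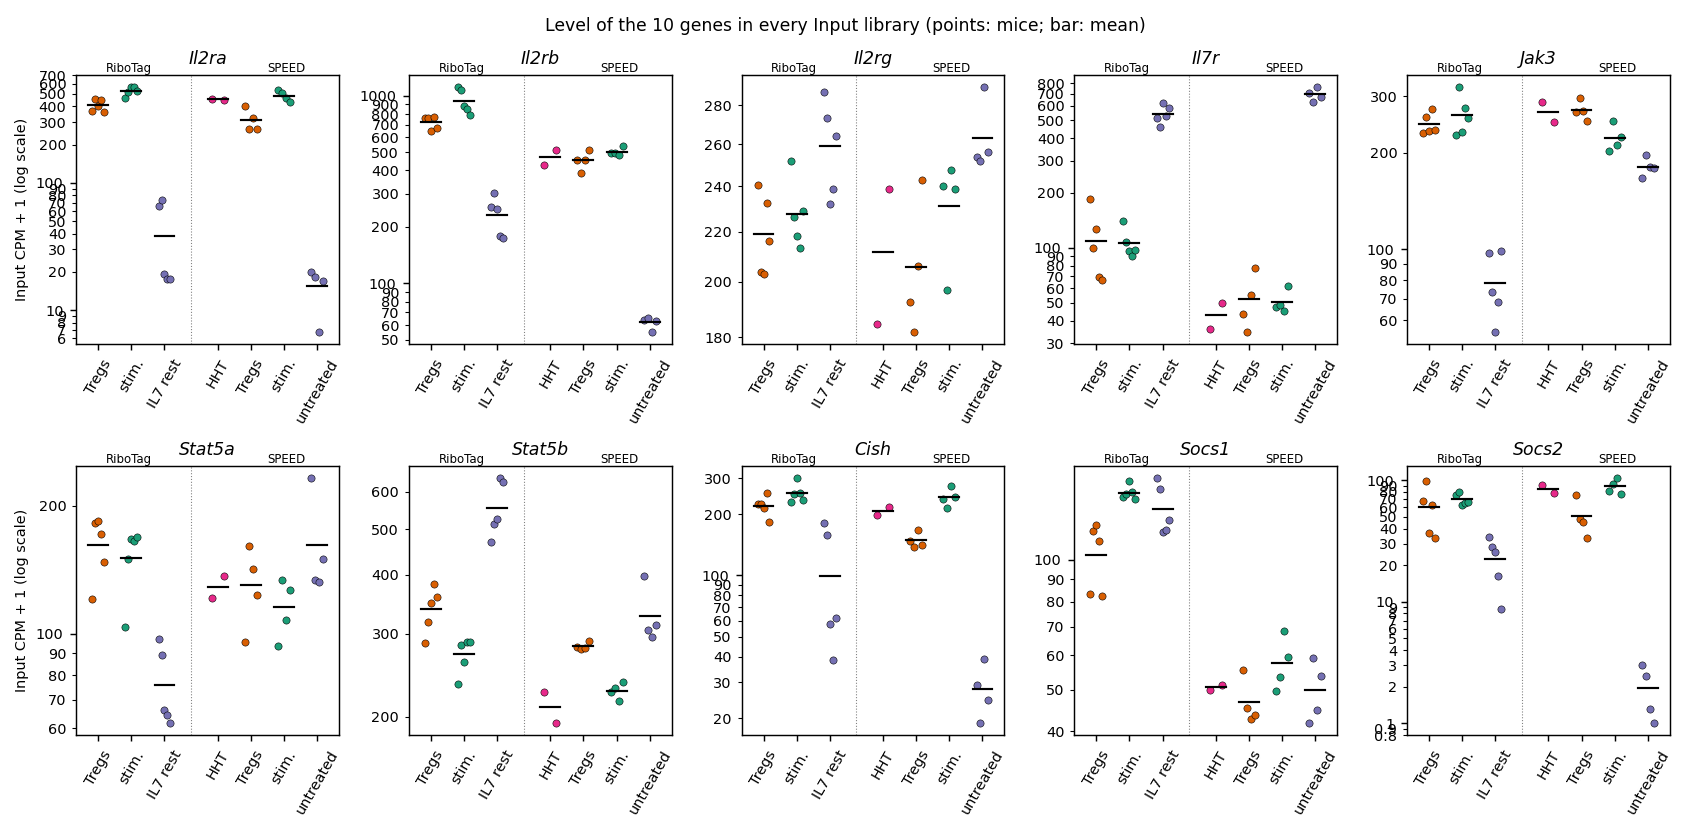
Level of each of the 10 genes in every Input library (CPM + 1, log scale; each panel has its own range), with 1 point per mouse and a bar at the mean. Within each assay the stimulated cultures lie above the resting ones for Il2ra, Il2rb, Jak3, Cish and Socs2 and below them for Il7r and Stat5b. Resting mice 1 and 2 of RiboTag hold the 2 high points of Il2ra and Cish.

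Bead stimulation turned the receptor chains in opposite directions: Il2ra and Il2rb rose and Il7r fell in every fraction of both assays, while the shared chain Il2rg differed by less than 1 on the log2 scale. In RiboTag Input, 6 of the 10 genes rose and 3 fell, where 32% and 31.4% of all tested genes did. The IP gave the same counts, with 33.6% and 31.1% of all genes. In SPEED Input 4 rose and 2 fell (27.9% and 26.5% of all genes), in Pol 4 and 2 (28.5% and 27.3%), and in SubPol 5 and 4 (27.5% and 24.5%). The median log2 fold change of the 10 genes was 1.18 in RiboTag Input and 0.26 in SPEED Input, against -0.0050 and 0.0076 over all tested genes.

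Il2ra had 463, 521, 568, 563 and 530.1 CPM in stimulated RiboTag Input, against 65.0, 71.8, 18.1, 16.7 and 16.4 CPM in IL7-rested Input. Every stimulated library was above every rested one, and rested mice 1 and 2 held several times the level of mice 3 to 5. The fit gave a 13.9-fold rise (log2 fold change 3.80 with SE 0.31, edgeR adjusted p = 1.18e-11), and with mice 3 to 5 alone the log2 fold change was 5.04 (adjusted p = 2.52e-16). The IP showed the same split, with 435, 480.3, 599, 607 and 554 CPM in stimulated cultures and 69.3, 57.6, 27.8, 19.8 and 23.0 CPM in rested ones (log2 fold change 3.74 with SE 0.31, edgeR adjusted p = 1.24e-11), and 4.64 (adjusted p = 3.35e-16) in mice 3 to 5 alone. In SPEED, Il2ra had 537, 504, 463 and 429 CPM in stimulated Input and 19.0, 17.2, 5.75 and 15.9 CPM in untreated Input, a 32.8-fold rise (log2 fold change 5.04 with SE 0.26, edgeR adjusted p = 5.58e-19). The untreated level was low in every mouse, and in untreated SubPol of mouse 2 only 2 reads were counted. Pol and SubPol gave log2 fold changes of 6.25 (SE 0.29, adjusted p = 3.72e-20) and 6.09 (SE 0.29, adjusted p = 5.59e-20).

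Il2rb encodes the beta chain, which carries much of the signal of the IL2 receptor. It had 1117, 1072, 882, 848 and 794 CPM in stimulated RiboTag Input, against 255, 304, 249, 177 and 173 CPM in rested Input (log2 fold change 2.02 with SE 0.13, edgeR adjusted p = 2.08e-14). In SPEED Input it had 493, 498, 480.2 and 537 CPM in stimulated and 62.8, 64.7, 54.1 and 62.1 CPM in untreated cultures (log2 fold change 3.04 with SE 0.13, edgeR adjusted p = 3.06e-21). The groups did not overlap in either assay, and mice 1 and 2 were the highest of the stimulated RiboTag libraries. IP, Pol and SubPol gave log2 fold changes of 1.73, 2.93 and 3.38.

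Il2rg, the gamma chain shared by the receptors of IL2, IL4, IL7, IL9, IL15 and IL21, had 251, 225, 217, 212 and 228 CPM in stimulated RiboTag Input and 286, 272, 231, 238 and 263 CPM in rested Input. These groups overlapped, and the difference passed narrowly (log2 fold change -0.19 with SE 0.08, edgeR adjusted p = 0.0471) and was lost in 9 of 10 alternative analyses. In the IP it was -0.21 (SE 0.08, adjusted p = 0.0259), and it missed the threshold without mouse 3 or 5. In SPEED Input, stimulated cultures had 239, 196, 247 and 238 CPM and untreated cultures 253, 251, 289 and 255 CPM, so all 4 stimulated values lay below the untreated ones, yet the difference did not pass (log2 fold change -0.19 with SE 0.18, edgeR adjusted p = 0.396; 95% interval -0.56 to 0.18). In SubPol it fell, with 197, 178, 166 and 226 CPM in stimulated and 287, 274, 293 and 381 CPM in untreated cultures (log2 fold change -0.69 with SE 0.19, edgeR adjusted p = 0.00214).

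Il7r, the IL7-binding chain, fell to 139.6, 106, 95.3, 89.3 and 95.8 CPM in stimulated RiboTag Input, against 514, 461, 624, 530.1 and 581 CPM in IL7-rested Input (log2 fold change -2.37 with SE 0.21, edgeR adjusted p = 1.25e-11). In SPEED Input it had 46.2, 47.7, 44.3 and 60.9 CPM in stimulated and 708, 629.8, 762 and 669 CPM in untreated cultures (log2 fold change -3.79 with SE 0.24, edgeR adjusted p = 2.68e-16). The groups stood far apart in every mouse, and the stimulated level was 0.193 of the rested level in RiboTag and 0.0721 of the untreated level in SPEED. Log2 fold changes were -2.20 in IP, -4.23 in Pol and -3.92 in SubPol.

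Jak3, the kinase that docks on the gamma chain, rose in RiboTag, where stimulated Input had 225, 319.8, 231, 274 and 256 CPM and rested Input 96.1, 72.8, 54.3, 67.3 and 97.6 CPM (log2 fold change 1.75 with SE 0.16, edgeR adjusted p = 2.39e-11; IP 1.54). In SPEED Input, stimulated cultures had 202, 249, 210.5 and 223 CPM and untreated cultures 165, 195, 179 and 179 CPM. All 4 mice were higher on stimulation and the groups did not overlap, but the difference missed the threshold (log2 fold change 0.30 with SE 0.13, edgeR adjusted p = 0.0528) and passed with the mouse as a replicate block (0.30, adjusted p = 0.0216).

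The STAT5 genes, neighbours on chromosome 11 with 346 bases between them in RefSeq, differed from each other. Their sequences are very alike, so the counting may have assigned some reads of one to the other or dropped them. Stat5a had 103, 149, 166, 164 and 168 CPM in stimulated RiboTag Input and 96.1, 88.0, 65.2, 63.5 and 60.6 CPM in rested Input, a 2.01-fold rise (log2 fold change 1.01 with SE 0.17, edgeR adjusted p = 5.5e-06; IP 0.82). Stat5b had 234, 283, 261, 287 and 288 CPM in stimulated and 468, 511, 523, 640.3 and 627 CPM in rested Input, so it fell (log2 fold change -1.03 with SE 0.11, edgeR adjusted p = 5.69e-10; IP -0.97). Neither gene's groups overlapped. In SPEED Input, Stat5b fell again, with 225, 229, 215 and 236 CPM in stimulated and 397, 305, 294 and 312 CPM in untreated cultures (log2 fold change -0.53 with SE 0.13, edgeR adjusted p = 0.00053). Stat5a had 92.8, 133, 107 and 126 CPM in stimulated and 231, 133, 132 and 149 CPM in untreated SPEED Input, which overlapped (log2 fold change -0.49 with SE 0.25, edgeR adjusted p = 0.098), and the untreated value of mouse 1 was far above the other 3. In SubPol, Stat5b fell in all 4 mice (log2 fold change -1.18 with SE 0.13, edgeR adjusted p = 9.78e-10). Stat5a had 47.8, 81.8, 50.4 and 38.6 CPM in stimulated and 197, 65.1, 114 and 77.0 CPM in untreated SubPol (log2 fold change -1.05 with SE 0.27, edgeR adjusted p = 0.00111). These groups overlapped, mouse 2 was higher on stimulation, and without mouse 1 the difference no longer passed (-0.57, adjusted p = 0.065).

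The inhibitors were led by Cish and Socs2, which rose in every fraction. Cish encodes an SH2 protein that binds activated cytokine receptors. It had 228, 249, 299, 252 and 233 CPM in stimulated RiboTag Input and 179.6, 156, 57.1, 37.7 and 61.2 CPM in IL7-rested Input (log2 fold change 1.35 with SE 0.29, edgeR adjusted p = 0.000188). Rested mice 1 and 2 again lay nearest to the stimulated range, and with mice 3 to 5 alone the log2 fold change was 2.36 (adjusted p = 3.35e-10). The IP gave 1.41 (SE 0.30, adjusted p = 0.000132), and 2.19 (adjusted p = 1.19e-09) in mice 3 to 5 alone. In SPEED Input, Cish had 236, 213, 273 and 240.4 CPM in stimulated and 28.1, 17.9, 37.8 and 23.5 CPM in untreated cultures, a 9.03-fold rise (log2 fold change 3.17 with SE 0.19, edgeR adjusted p = 2.86e-17).

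Socs2, another SH2 inhibitor of JAK-STAT signalling, had 74.1, 78.6, 61.9, 63.9 and 65.5 CPM in stimulated and 32.9, 27.2, 24.7, 15.3 and 7.71 CPM in rested RiboTag Input (log2 fold change 1.66 with SE 0.29, edgeR adjusted p = 7.72e-06). In SPEED it was close to absent before stimulation: untreated Input held 8, 6, 1 and 0 reads, Pol 2, 1, 3 and 1 and SubPol 6, 0, 0 and 0. Stimulated SPEED Input held 221, 349, 228 and 218 reads, or 79.8, 92.5, 103 and 75.8 CPM (log2 fold change 6.45 with SE 0.42, edgeR adjusted p = 6.24e-16). The size of that rise is set by a handful of untreated reads and depends on the prior count, although no stimulated library came near an untreated one.

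Socs1, an inhibitor that binds JAK kinases directly, did not pass in either Input comparison. It had 138, 141, 151, 143 and 137 CPM in stimulated and 154, 145, 115, 116 and 122 CPM in rested RiboTag Input (log2 fold change 0.12 with SE 0.12, edgeR adjusted p = 0.376; 95% interval -0.12 to 0.37). With mice 3 to 5 alone the difference passed, at 0.32 (adjusted p = 0.0364). In SPEED it had 48.7, 52.5, 67.3 and 58.5 CPM in stimulated and 40.8, 58.2, 43.9 and 52.8 CPM in untreated Input (log2 fold change 0.21 with SE 0.19, edgeR adjusted p = 0.352), and in SubPol it rose by 0.52 (SE 0.18, adjusted p = 0.0169), a call lost without mouse 1 (0.081) or 2 (0.0855).

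**Figure D2:**
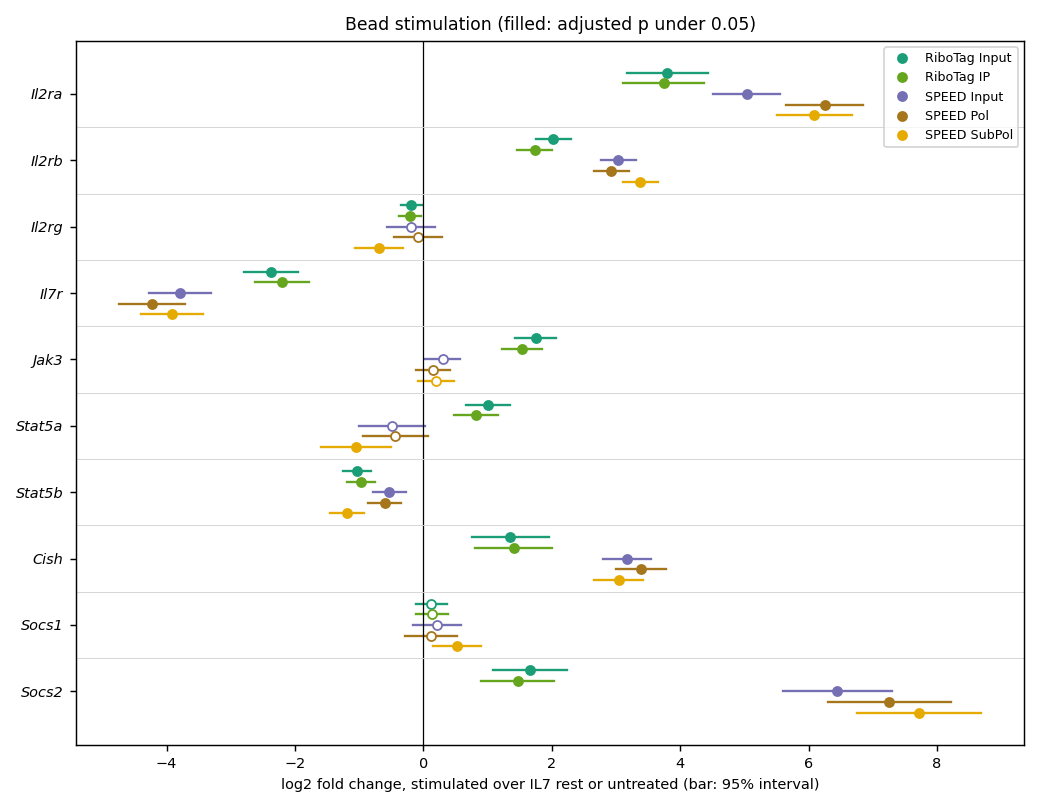
Log2 fold change of each gene on bead stimulation in 5 fractions, with 95% intervals (RiboTag against IL7 rest, SPEED against untreated; filled points have an adjusted p under 0.05). Il2ra, Il2rb, Jak3, Cish, Socs1 and Socs2 lie right of 0 and Il2rg, Il7r and Stat5b left of it in all 5. Stat5a is right of 0 in RiboTag and left of it in SPEED.

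The size of the stimulation effect in Input differed between the assays for 8 of the 10 genes, 3 with a higher value in RiboTag and 5 with a lower one, where 9.2% and 7.81% of 11843 genes did. The RiboTag cultures were set against cells rested in IL7, the cytokine of this pathway, and the SPEED cultures against untreated cells. The mice, their strain and the fractionation differ as well, and these cannot be told apart. The RiboTag effect minus the SPEED effect was -1.82 (SE 0.39, adjusted p = 0.00132) for Cish, -4.78 (SE 0.61, adjusted p = 1.64e-06) for Socs2, -1.01 (SE 0.19, adjusted p = 0.000294) for Il2rb and -0.49 (SE 0.14, adjusted p = 0.0124) for Stat5b on the log2 scale. For Il2ra it was -1.24 (SE 0.42, adjusted p = 0.0401), and it no longer passed without RiboTag mouse 1 (-0.89) or 2 (-0.86) or without any 1 of the SPEED mice (-1.33 to -1.02). Without both RiboTag mice 1 and 2, an analysis added after seeing the data, the difference was 0.015 (adjusted p = 0.998) for Il2ra and -0.81 (adjusted p = 0.0307) for Cish, while the other 6 genes still passed. The Stat5b difference missed the threshold without SPEED mouse 4 (adjusted p = 0.0612). The difference was 1.43 (SE 0.31, adjusted p = 0.00153) for Il7r, 1.45 (SE 0.17, adjusted p = 5.58e-07) for Jak3 and 1.50 (SE 0.26, adjusted p = 0.000152) for Stat5a, so these had a higher value in RiboTag. For Il7r the effect was negative in both assays and less so in RiboTag. Il2rg and Socs1 did not pass, with differences of 0.01 (95% interval -0.27 to 0.28) and -0.08 (-0.47 to 0.31).

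Adding Tregs to stimulated cultures moved 1 or 2 of the 10 genes past the threshold in each fraction. In RiboTag, Socs1 fell in Input and in IP and no other member passed, so 1 of 10 passed in each, where 4.53% and 5.69% of all genes did. In SPEED, Cish fell in Input, Pol and SubPol, and Stat5b rose in SubPol, again 1, 1 and 2 of 10 against 0.587%, 0.282% and 1.15% of all genes. The median log2 fold change of the 10 genes was -0.15 in RiboTag Input and -0.16 in SPEED Input, against 0.0050 and 0.024 over all tested genes. None of the 10 genes passed for a difference between the assays in its Treg effect in Input, where 0.127% of all genes did. On simulated counts that test recovered 29% of 1.5-fold and 65% of 2-fold differences, so such differences could be missed.

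Socs1 had 82.3, 115, 119, 109.6 and 81.4 CPM with Tregs in RiboTag Input, against 138, 141, 151, 143 and 137 CPM in stimulated cultures. All 5 libraries with Tregs lay below all 5 without them, a fall to 0.716 of the stimulated level (log2 fold change -0.48 with SE 0.12, edgeR adjusted p = 0.0155). In the IP it had 63.3, 84.4, 94.2, 71.3 and 75.1 CPM with Tregs and 107, 96.2, 124, 122 and 127 CPM in stimulated cultures (log2 fold change -0.57 with SE 0.12, edgeR adjusted p = 0.00494), and these groups did not overlap either. Without mouse 1 the Input adjusted p was 0.0544, without mouse 4 it was 0.0676 in Input and 0.0551 in IP, and without mouse 5 0.128 and 0.0545. In SPEED the difference did not pass, with 54.6, 44.2, 41.8 and 42.7 CPM with Tregs and 48.7, 52.5, 67.3 and 58.5 CPM in stimulated Input (log2 fold change -0.30 with SE 0.19, edgeR adjusted p = 0.464). In SPEED Pol it did not pass either, though Socs1 was lower with Tregs in 4 of 4 mice (log2 fold change -0.48 with SE 0.20, edgeR adjusted p = 0.536), and the groups overlapped.

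Cish had 147, 138, 167 and 139 CPM with Tregs in SPEED Input, against 236, 213, 273 and 240.4 CPM in stimulated cultures (log2 fold change -0.70 with SE 0.16, edgeR adjusted p = 0.0302). In Pol it had 171, 129, 122 and 128 CPM with Tregs and 225, 233, 201 and 259 CPM in stimulated cultures (log2 fold change -0.73 with SE 0.17, edgeR adjusted p = 0.0407), and in SubPol 217, 161, 162 and 188 CPM with Tregs and 286, 319, 228 and 309 CPM in stimulated cultures (log2 fold change -0.65 with SE 0.16, edgeR adjusted p = 0.0394). All 4 mice were lower in each of the 3 fractions and no groups overlapped, and the fitted level with Tregs was 0.615, 0.602 and 0.637 of the stimulated level. With any 1 of the 4 mice left out, the adjusted p was over 0.05 in all 3 fractions, while the log2 fold change ranged from -0.86 to -0.53. In RiboTag Input it was -0.21 (SE 0.28, adjusted p = 0.756), with 222, 223, 213, 252 and 181 CPM with Tregs and 228 to 299 CPM in stimulated cultures. These groups overlapped, and 1 of 5 mice was higher with Tregs. The SD of Cish in RiboTag Input was 64.6 CPM in rested, 28.1 CPM in stimulated and 25.4 CPM in Treg cultures. Rested cultures enter that SE, and their part in this result was not tested.

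Il2ra, which Tregs themselves carry, had 364, 459, 399.5, 447 and 358 CPM with Tregs and 463, 521, 568, 563 and 530.1 CPM in stimulated RiboTag Input. In SPEED Input it had 400.0, 264, 324 and 262 CPM with Tregs and 537, 504, 463 and 429 CPM in stimulated cultures. It was lower with Tregs in 5 of 5 and 4 of 4 mice without overlap in Input, yet passed in neither assay (log2 fold change -0.38 with SE 0.26, edgeR adjusted p = 0.465 in RiboTag, and log2 fold change -0.63 with SE 0.20, edgeR adjusted p = 0.139 in SPEED). IP, Pol and SubPol gave log2 fold changes of -0.47 (SE 0.26, adjusted p = 0.313), -0.63 (SE 0.21, adjusted p = 0.286) and -0.61 (SE 0.20, adjusted p = 0.147). With RiboTag mice 3 to 5 alone the difference passed in Input, -0.46 (adjusted p = 0.00474), and in IP, -0.54 (adjusted p = 0.00167), where 6.5% and 5.95% of all genes passed. The mice left out stood apart by their rested level of this same gene, and rested cultures enter the spread. The passing values are therefore no independent support for a Treg effect.

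Il2rb, Stat5b and Socs2 kept 1 direction in most mice without passing in Input. Il2rb had 759, 762, 647, 767 and 670.1 CPM with Tregs and 1117, 1072, 882, 848 and 794 CPM in stimulated RiboTag Input (log2 fold change -0.39 with SE 0.13, edgeR adjusted p = 0.0778), lower in 5 of 5 mice. In SPEED Input the Il2rb groups overlapped (log2 fold change -0.15 with SE 0.12, edgeR adjusted p = 0.584), though 4 of 4 mice were lower. In SPEED Pol Il2rb was at -0.04, lower in 2 of 4 mice. Stat5b had 286, 317, 347, 381 and 358 CPM with Tregs and 234, 283, 261, 287 and 288 CPM in stimulated RiboTag Input (log2 fold change 0.32 with SE 0.11, edgeR adjusted p = 0.0786), and was higher in 5 of 5 mice there and in 4 of 4 in SPEED Input. It rose in SPEED SubPol, with 172, 195, 190.3 and 181 CPM with Tregs and 122, 103, 129.6 and 121 CPM in stimulated cultures (log2 fold change 0.63 with SE 0.13, edgeR adjusted p = 0.00957), but not without mouse 2, 3 or 4. Socs2 had 74.0, 47.2, 43.8 and 32.3 CPM with Tregs and 79.8, 92.5, 103 and 75.8 CPM in stimulated SPEED Input (log2 fold change -0.82 with SE 0.27, edgeR adjusted p = 0.149). In RiboTag Input the Socs2 groups overlapped (log2 fold change -0.22 with SE 0.26, edgeR adjusted p = 0.716), and 4 of 5 mice were lower. Among the 4 SPEED Treg cultures, that of mouse 1 held the highest Socs2 and Il2ra in all 3 fractions and the highest Cish in Pol and SubPol.

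In Input, 3 of the 10 genes did not overlap between Treg and stimulated cultures in RiboTag, all lower with Tregs (Il2ra, Il2rb and Socs1), where 3.59% of all tested genes were lower without overlap. In SPEED Input 3 were lower without overlap (Il2ra, Cish and Socs2) and 1 higher (Stat5b), where 6.65% and 5.57% of all genes were. With the mouse as a replicate block, which compares cultures of the same mouse, more members passed. RiboTag Input then had 3, with Socs1 joined by Il2rb at -0.38 (adjusted p = 0.0146) and Stat5b at 0.32 (adjusted p = 0.00258), against 7.84% of all genes. RiboTag IP had 2, with Il2rb at -0.35 (adjusted p = 0.0202) beside Socs1, against 10% of all genes. SPEED Input had 3, with Il2ra at -0.64 (adjusted p = 0.0449) and Socs2 at -0.88 (adjusted p = 0.0498) beside Cish, against 1.2% of all genes. SPEED SubPol had 4, with Il2ra at -0.62 (adjusted p = 0.0413) and Socs2 at -0.94 (adjusted p = 0.0236) beside Cish and Stat5b, against 1.97%.

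Il7r, Il2rg, Jak3 and Stat5a passed in no fraction with Tregs. Il7r had 185, 98.8, 126, 68.5 and 65.5 CPM with Tregs and 139.6, 106, 95.3, 89.3 and 95.8 CPM in stimulated RiboTag Input (log2 fold change 0.04, 95% interval -0.38 to 0.47), and its Treg values spread over a wider range than the stimulated ones. In SPEED Input the log2 fold change of Il7r was 0.04 (-0.45 to 0.52). In RiboTag and SPEED Input the 95% intervals of Il2rg were -0.22 to 0.11 and -0.54 to 0.21, for Jak3 -0.39 to 0.20 and 0.02 to 0.55, and for Stat5a -0.24 to 0.43 and -0.34 to 0.68.

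**Figure D3:**
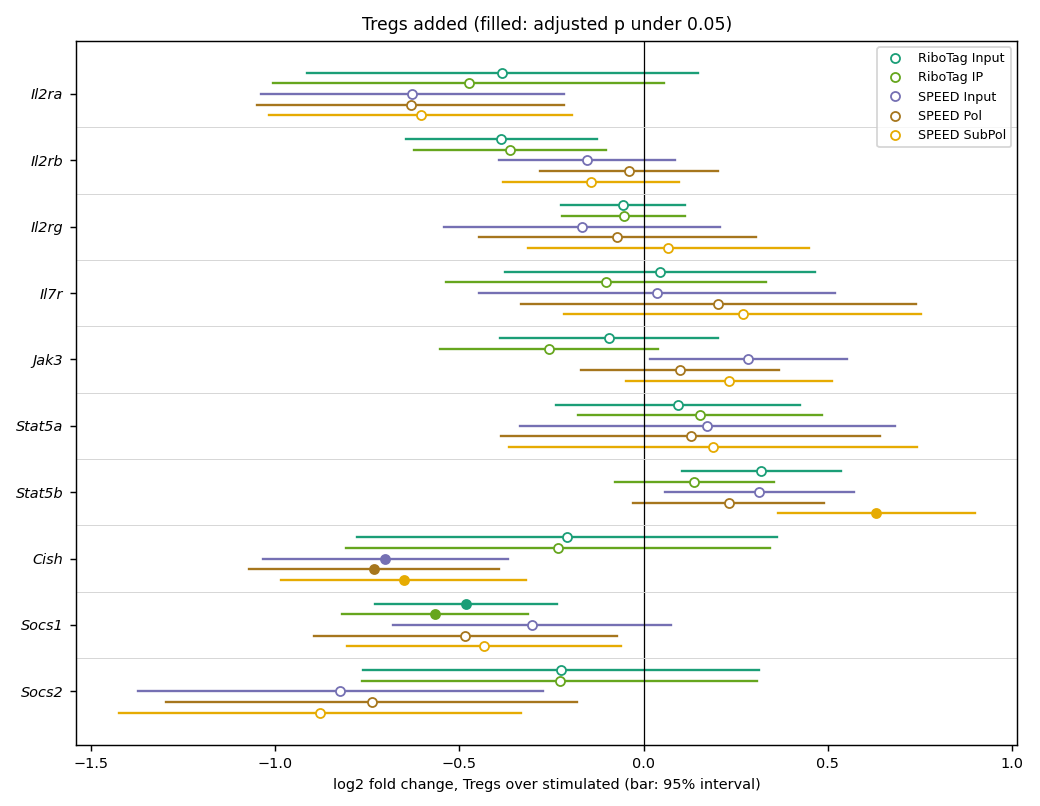
Log2 fold change of each gene with Tregs against beads alone in 5 fractions, with 95% intervals (filled points have an adjusted p under 0.05). Filled points are Socs1 in the RiboTag fractions, Cish in the 3 SPEED fractions and Stat5b in SPEED SubPol. Il2ra, Il2rb, Cish, Socs1 and Socs2 lie left of 0 in all 5.

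On tagged ribosomes, no member differed between IP and Input of the same cultures in the main fit, where 1.85% of all genes did with Tregs, 0.977% in stimulated and 6.89% in rested cultures. At an unadjusted p under 0.05 there were 2, 1 and 4 members, against 16.8%, 13.6% and 22.1% of all genes. Il7r and Socs1 were lower in IP in every one of the 15 cultures. The log2 ratio of IP to Input of Il7r was -0.88, -0.14, -0.76, -0.63 and -0.30 with Tregs, -0.46, -0.60, -0.13, -0.36 and -0.59 in stimulated and -0.38, -0.44, -0.84, -0.57 and -0.69 in rested cultures. For Socs1 it was -0.38, -0.45, -0.34, -0.61 and -0.11 with Tregs, -0.36, -0.55, -0.29, -0.23 and -0.11 in stimulated and -0.79, -0.52, -0.05, -0.09 and -0.07 in rested cultures. Cish was lower in IP in 14 of the 15, the exception being rested mouse 4.

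Both libraries of a culture share its RNA, so IP was also compared with Input with each culture as a replicate block. In that fit 3 members were lower in IP than in Input in Treg cultures, 2 in stimulated and 2 in rested cultures. In rested cultures 2 were higher in IP. The shares of all genes called were 11.2%, 7.9% and 17.9%. Il7r was lower in IP in all 3, with log2 differences of -0.56 (adjusted p = 0.00189) in Treg cultures, -0.43 (adjusted p = 0.0149) in stimulated and -0.59 (adjusted p = 5.57e-05) in rested cultures. Cish was lower in IP in Treg cultures, -0.31 (adjusted p = 0.0253), and in stimulated cultures, -0.28 (adjusted p = 0.0498). Socs1 was lower in IP in Treg cultures, -0.38 (adjusted p = 0.0251), and in rested cultures, -0.31 (adjusted p = 0.043). Il2rb and Jak3 were the members higher in IP than in Input at rest, at 0.28 (adjusted p = 0.0044) and 0.40 (adjusted p = 0.0166). The change of the IP to Input ratio on stimulation or with Tregs passed for none of the 10 genes, in the main fit or in either block, where 0.0279% and 0% of all genes passed in the main fit.

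In the polysome fractions, the kinase and both STAT5 genes were higher in Pol than in SubPol, and Socs1 was lower, in untreated, stimulated and Treg cultures alike. In stimulated cultures 4 genes were higher and 4 lower in Pol, where 23.6% and 21.8% of all genes were. With Tregs it was also 4 and 4 (22.6% and 21.6%), and in untreated cultures 3 and 2 (21.9% and 17.8%). These differences are relative to the average gene, since scaling is within each library.

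Jak3 had 289, 292, 279.6 and 229 CPM in stimulated Pol and 143, 159.8, 93.5 and 103 CPM in stimulated SubPol (log2 fold change 1.12 with SE 0.14, edgeR adjusted p = 1.22e-08). It gave 0.99 (SE 0.14, adjusted p = 1.33e-07) with Tregs and 1.17 (SE 0.14, adjusted p = 1.05e-08) in untreated cultures. Stat5a had 135, 114, 166 and 114 CPM in stimulated Pol and 47.8, 81.8, 50.4 and 38.6 CPM in SubPol (log2 fold change 1.27 with SE 0.27, edgeR adjusted p = 0.00014). Stat5b had 266, 265, 239 and 250.4 CPM in stimulated Pol and 122, 103, 129.6 and 121 CPM in SubPol (log2 fold change 1.10 with SE 0.13, edgeR adjusted p = 8.98e-09). Pol was above SubPol in every culture of these 3 genes before HHT. In untreated cultures Stat5a differed by 0.66 (SE 0.25, adjusted p = 0.0355). That difference missed the threshold in 6 of 10 alternatives, among them without mouse 2, 3 or 4 (adjusted p = 0.142, 0.0856 and 0.107) and with that SubPol library of mouse 3 dropped (0.59, adjusted p = 0.0985). Untreated Stat5b differed by 0.52 (SE 0.13, adjusted p = 0.00113), or 0.33 (adjusted p = 0.0379) with that library dropped. Il2rg was higher in Pol in stimulated cultures (log2 fold change 0.64 with SE 0.19, edgeR adjusted p = 0.00527) and with Tregs (0.50), and at 0.02 in untreated ones.

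Socs1 had 30.8, 33.7, 32.5 and 28.5 CPM in stimulated Pol and 86.0, 99.1, 108 and 111 CPM in stimulated SubPol (log2 fold change -1.68 with SE 0.19, edgeR adjusted p = 3.8e-09). The difference was -1.73 (SE 0.20, adjusted p = 3.35e-09) with Tregs and -1.28 (SE 0.19, adjusted p = 1.16e-06) in untreated cultures, and the fractions did not overlap in any of the 3 conditions. Il7r had 36.6, 16.6, 37.5 and 43.1 CPM in stimulated Pol and 64.2, 43.0, 53.5 and 63.2 CPM in SubPol (log2 fold change -0.75 with SE 0.26, edgeR adjusted p = 0.016). In stimulated cultures the log2 difference, Pol minus SubPol, was -0.40 (SE 0.12, adjusted p = 0.00553) for Il2rb and -0.65 (SE 0.27, adjusted p = 0.048) for Socs2. Cish was lower in Pol in untreated cultures (-0.67, SE 0.21, adjusted p = 0.00859) and with Tregs (-0.40, SE 0.17, adjusted p = 0.0489), and in stimulated ones the difference was -0.32 (SE 0.16, adjusted p = 0.112). Il2ra was lower in Pol in every stimulated and Treg culture without passing (-0.46, SE 0.20, adjusted p = 0.0617 and -0.49, SE 0.21, adjusted p = 0.0509), and passed with the culture as a replicate block (-0.46, adjusted p = 0.0114 and -0.50, adjusted p = 0.00778). Several lower calls lie close to the threshold: without the filter on low counts, Il7r (0.0585) and Socs2 (0.111) missed it in stimulated cultures, and Il2rb (0.0994) and Cish (0.108) missed it with Tregs. With 1 mouse left out, calls were lost in stimulated cultures for Il7r (mouse 1 or 2), Il2rb (mouse 1) and Socs2 (mouse 2, 3 or 4). They were lost with Tregs for Cish (any mouse), Il2rb (mouse 1, 2 or 4), Il2rg (mouse 1 or 2) and Il7r (mouse 2), and in untreated cultures for Cish (mouse 4).

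The change of the Pol to SubPol ratio was then tested as an interaction. With Tregs against stimulated cultures none of the 10 genes passed, nor did any of the 12428 genes tested (0%), by DESeq2 none of the 10 either, and at an unadjusted p under 0.05 there was 1 member, Stat5b, at -0.40 (95% interval -0.77 to -0.03) and lower in 4 of 4 mice, where 2.64% of all genes were at that p. On simulated counts the Treg test recovered 9.71% of 1.5-fold and 52.6% of 2-fold changes, so changes of that size could be missed. On stimulation none passed, where 2.6% of all genes did. Stat5b came nearest, at 0.58 (SE 0.18, adjusted p = 0.0702), higher in 4 of 4 mice, and passed with the culture as a replicate block (0.54, adjusted p = 0.0168), where 5.71% of all genes did, and with the SubPol library of untreated mouse 3 dropped (0.76, adjusted p = 0.0105).

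**Figure D4:**
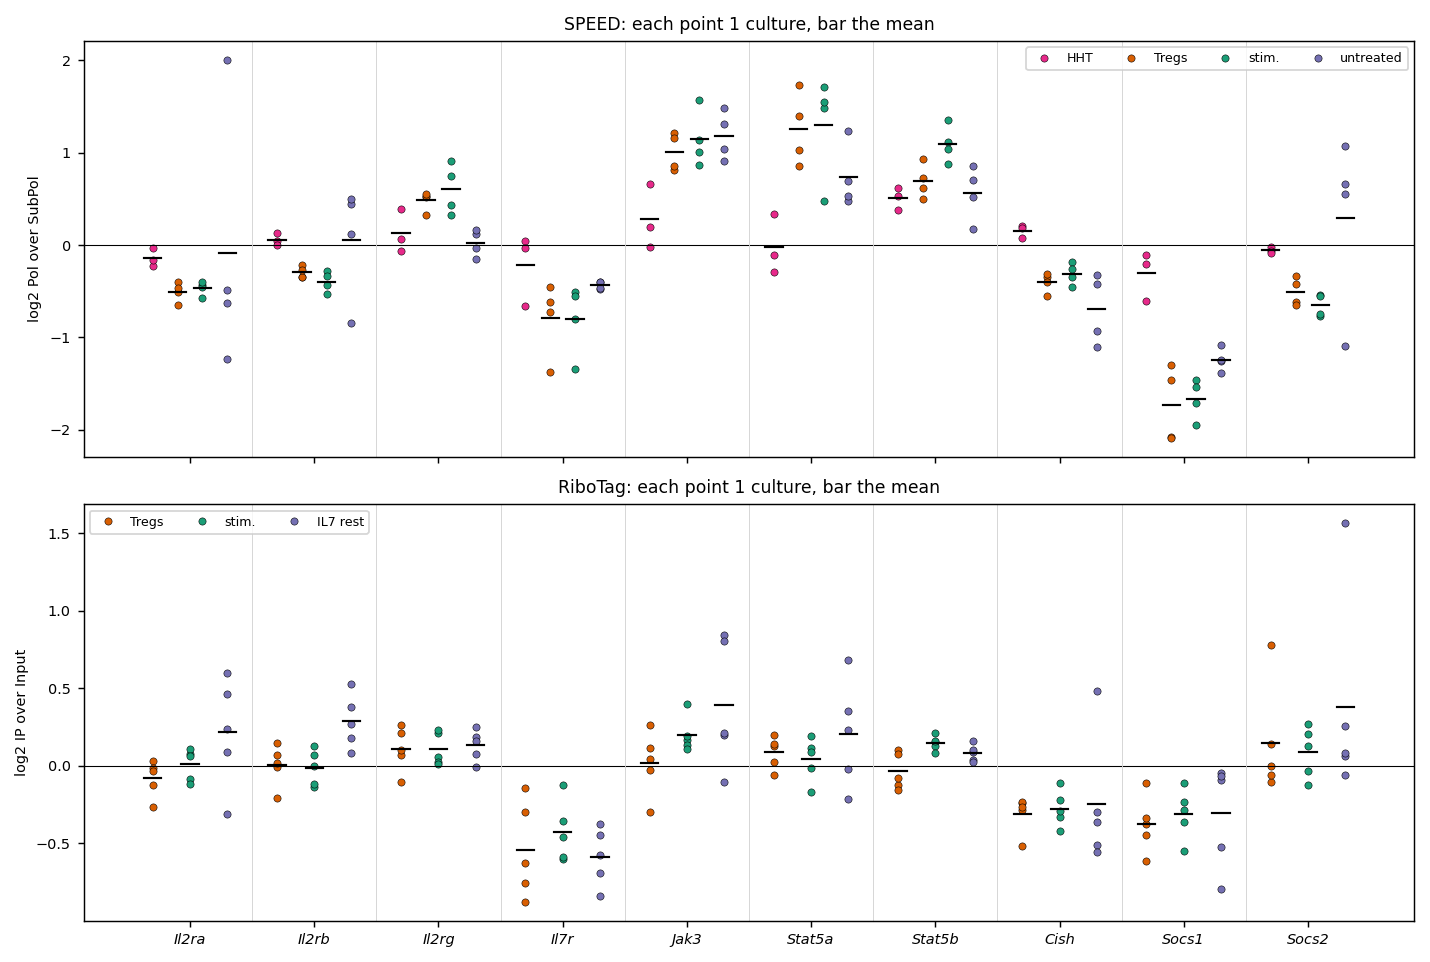
Log2 ratio of polysomal to subpolysomal RNA (SPEED, upper panel) and of tagged-ribosome RNA to Input (RiboTag, lower panel), with 1 point per culture and a bar at the mean. Jak3, Stat5a and Stat5b lie above 0 and Socs1 below -1 in untreated, stimulated and Treg cultures of SPEED, and after HHT the points of Socs1, Jak3 and Stat5a are nearer to 0.

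With HHT in the last 10 min before harvest, the Pol to SubPol ratio of 4 members differed from that of stimulated cultures. The effect of HHT passed for none in Input (n = 2 HHT Input libraries), where 0.105% of all genes passed. At an unadjusted p under 0.05, 0 members differed in Input, against 8.25% of all genes, and with so few libraries a change could be missed. A further HHT Input library carries the labels of mouse 1, and whether it came from mouse 2 is not known. With it in the fit, 0 members passed, against 0.265% of all genes. The ratio of Pol to SubPol moved for 4 of the 10 genes, 1 up and 3 down, against 10.3% and 12.7% of all genes. Scaling is within each library, so these changes are relative to the average gene, and a shift shared by most RNA would not show. Over all genes, 45.4% differed between Pol and SubPol in stimulated cultures and 6.75% with HHT, which had fewer libraries. The mean log2 ratio of each of the 10 genes was nearer to 0 with HHT than in stimulated cultures. How many of all genes did the same was not counted, so this is not read as a trait of these 10. Socs1 had a log2 ratio of -0.20, -0.11 and -0.60 in HHT cultures and -1.46, -1.54, -1.71 and -1.94 in stimulated cultures (change 1.37, SE 0.29, adjusted p = 0.00063). Its Pol level was 40.3, 46.1 and 34.2 CPM with HHT and 30.8, 33.7, 32.5 and 28.5 CPM in stimulated cultures, and its SubPol level 46.5, 49.7 and 52.1 CPM with HHT and 86.0, 99.1, 108 and 111 CPM in stimulated cultures. All 3 HHT ratios lay above all 4 stimulated ones.

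For Jak3 the log2 ratio was 0.20, -0.02 and 0.66 in HHT cultures and 1.01, 0.87, 1.57 and 1.14 in stimulated ones (change -0.86, SE 0.21, adjusted p = 0.00211). For Stat5a it was -0.11, -0.29 and 0.34 in HHT and 1.48, 0.47, 1.71 and 1.55 in stimulated cultures (change -1.27, SE 0.40, adjusted p = 0.0172). For Stat5b it was 0.61, 0.38 and 0.53 in HHT and 1.12, 1.35, 0.88 and 1.04 in stimulated cultures (change -0.58, SE 0.20, adjusted p = 0.03). Each was lower in 3 of 3 mice. The change of Stat5b missed the threshold without mouse 2 (-0.46, adjusted p = 0.241) or 4 (-0.62, adjusted p = 0.0627), and that of Stat5a without mouse 3 (-1.34, adjusted p = 0.0865). After HHT, Stat5b was the 1 member of 10 that differed between Pol and SubPol (log2 fold change 0.52 with SE 0.15, edgeR adjusted p = 0.0268), where 6.75% of all genes did. That call was lost with any 1 mouse left out (adjusted p = 0.0614 to 0.223) and without the filter on low counts (0.0579). The remaining members did not pass, and the change was positive in 3 of 3 mice for Il2ra (0.32), Il2rb (0.46), Il7r (0.64), Cish (0.47) and Socs2 (0.59) and negative in 3 of 3 for Il2rg (-0.50).

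Across libraries the members fell into opposing patterns, described here by Pearson's r of log2 CPM over 30 RiboTag and 44 SPEED libraries. These libraries share mice and cultures, and each value pools stimulated with resting cultures. It also pools the fractions (Input with IP, or Input with Pol and SubPol), and the part of each in r was not tested. Il2ra and Il2rb ran together (r = 0.97 in both assays), as did Il2ra and Cish (0.92 in RiboTag and 0.95 in SPEED), and Il2ra ran against Il7r (-0.91 and -0.94). Stat5a and Stat5b ran against each other in RiboTag (r = -0.71) and together in SPEED (0.77). Among the 9056 genes whose average log2 CPM reached 3, ranked by the lower of both r values, the pattern most like Il2ra was that of ENSMUSG00000036223 (0.97), then ENSMUSG00000026603 (0.97) and Il2rb (0.97). For Il7r it was ENSMUSG00000036840 (0.94) and ENSMUSG00000066278 (0.94). For Cish it was ENSMUSG00000053553 (0.93), then Il2ra (0.92).

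In SPEED Input, Il2ra averaged 453 ± 4.38 CPM with HHT, 313 ± 65.0 CPM with Tregs, 483 ± 47.3 CPM with beads alone and 14.4 ± 5.94 CPM untreated (SD, n = 2 for HHT and 4 for the other groups). The order was thus beads alone, HHT, Tregs and untreated. Beads alone and HHT overlapped, whereas Tregs lay below both and untreated cells far below all. Il7r averaged 41.7 ± 9.80 CPM with HHT, 51.7 ± 18.8 CPM with Tregs, 49.8 ± 7.55 CPM with beads alone and 692 ± 56.7 CPM untreated, and the 3 groups with beads overlapped. Cish averaged 206 ± 12.7 CPM with HHT, 148 ± 13.4 CPM with Tregs, 241 ± 24.5 CPM with beads alone and 26.8 ± 8.43 CPM untreated, with Tregs below beads alone and HHT without overlap.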

How the data were processed

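Per the labels' protocols, libraries were made with SMART-Seq v4 and NexteraXT, a kit that does not mark strand, so reads of overlapping antisense genes cannot be told apart. The authors deposited raw gene counts per assay for 53465 identifiers; per the submitters' processing notes the tools included SAMtools 1.2, FastQC 0.11.3, Picard 1.134 and HTSeq 0.4.1, on build GRCm38. Which aligner was used is not given in the sources used here. Columns that match no sample (16) stayed out. A pair of SPEED libraries has the same mouse 1, HHT and Input labels, and the later was left out, so 44 were fitted, with both as an alternative. No 2 libraries of a group agreed within counting noise (chi-square per degree of freedom 1.79 or more in 123 pairs).

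The counts of each assay were fitted in 1 model with edgeR 4.0.16 under R 4.3.3 (filterByExpr, minimum count 10, minimum total 15, TMM, robust quasi-likelihood), at a biological coefficient of variation of 0.188 for RiboTag and 0.215 for SPEED. The assay comparison used 29 Input libraries. Tests were two-sided, and p-values were adjusted by Benjamini-Hochberg over all genes tested at 0.05. SE is the fold change (log2) divided by the root of F, and intervals are at 95%. Ratios per culture came from log2 CPM (prior count 2). The fits were checked on simulated counts that held changes of 1.5-fold and 2-fold. The Treg test in RiboTag Input recovered 57.7% and 90.3% of them. The Treg change of Pol to SubPol recovered 9.71% and 52.6%, and the assay difference of the Treg effect 29% and 65%. Of all calls, 3.87%, 1.61% and 6% were false in these 3 tests. DESeq2 1.42.0, RLE scaling, no filter, each mouse left out, mice 3 to 5 alone (for the assay difference, added after seeing the data), 1 SubPol library left out, and blocks by mouse or culture were alternatives. Samples of the same number come from the same mouse per the labels, which pairs them. Deviations from the group means had a mean r between libraries of a mouse of 0.15 for RiboTag (-0.029 to 0.42) and 0.038 for SPEED (-0.075 to 0.20), so SPEED pairing rests on the labels. The 10 genes, all named in full, and the lists were chosen with earlier results of these data known. The planned lists of other pathway genes and cell type markers were not analysed here, since the tables hold identifiers without symbols. Beyond the 10, the rule names the genes most like Il2ra, Il7r and Cish, by identifier.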

Additional observations from a re-analysis of the deposited data

Results flagged for a closer look

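In groups of 4 or 5 mice, 8 of 150 gene and group combinations had 1 library far from the others by Dixon's test, about as many as chance gives (1 in 20 groups). In RiboTag all 3 were mouse 1 and low: Jak3 with Tregs in IP (187 CPM, others 253 to 279.5), Stat5b with Tregs in IP (263 CPM, others 339.7 to 365) and Stat5a in stimulated Input (103 CPM, others 149 to 168). In SPEED, Cish with Tregs in Pol was high in mouse 1 (171 CPM, others 122 to 129), Stat5a with Tregs in Pol was low in mouse 3 (139 CPM, others 147 to 148), and Socs2 in stimulated SubPol was high in mouse 2 (147 CPM, others 122 to 125). In untreated SPEED cultures, Il2rg in Input was high in mouse 3 (289 CPM, others 251 to 255), and Socs2 in SubPol had 1.96 CPM in mouse 1 and 0 in the others.

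The stimulation effect in Input differed between the assays for 8 genes, as RiboTag minus SPEED on the log2 scale by edgeR's interaction test. The value was -1.24 (SE 0.42, adjusted p = 0.0401) for Il2ra, which was 0.015 (adjusted p = 0.998) without RiboTag mice 1 and 2, -1.01 (SE 0.19, adjusted p = 0.000294) for Il2rb, -0.49 (SE 0.14, adjusted p = 0.0124) for Stat5b, -1.82 (SE 0.39, adjusted p = 0.00132) for Cish, which was -0.81 (adjusted p = 0.0307) without those mice, and -4.78 (SE 0.61, adjusted p = 1.64e-06) for Socs2. It was 1.43 (SE 0.31, adjusted p = 0.00153) for Il7r, 1.45 (SE 0.17, adjusted p = 5.58e-07) for Jak3 and 1.50 (SE 0.26, adjusted p = 0.000152) for Stat5a.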

How the results depend on the processing

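The 79 values of single genes past the threshold were recomputed 794 times under the alternatives: 713 stayed past it in the same direction, 80 kept the direction and lost it, and 1 reversed. The reversal was the Il2ra assay difference, 0.015 (adjusted p = 0.998) with RiboTag mice 3 to 5 alone, chosen after seeing the data. Of 171 values that missed the threshold, 29 passed under at least 1 alternative. Counts of members moved by over 1.5 times in the cases below, each with the share of all genes called in the same fit, and the cause was not tested. With DESeq2, IP against Input had 1 member at rest (9.46%) and 1 with Tregs (3.56%), SPEED Input with Tregs had 3 (2.07%), and the Pol to SubPol change on stimulation had 1 (5.36%). With the mouse as a replicate block, Tregs gave 3 in RiboTag Input (7.84%), 2 in IP (10%), 3 in SPEED Input (1.2%) and 4 in SubPol (1.97%), and IP against Input at rest gave 1 (10.4%). With the culture as a replicate block, IP against Input gave 4 at rest (17.9%), 2 stimulated (7.9%) and 3 with Tregs (11.2%), and the Pol to SubPol change on stimulation gave 1 (5.71%). With mice 3 to 5 alone, Tregs gave 3 in RiboTag Input (6.5%) and 2 in IP (5.95%), and IP against Input at rest gave 1 (10.7%). Without the filter on low counts, Pol against SubPol after HHT gave 0 (1.7%), and with the SubPol library of untreated mouse 3 dropped the change on stimulation gave 1 (3.04%).

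With each mouse left out in turn, fewer genes were called in most fits. Tregs gave 0 to 1 members in RiboTag Input (0 without mouse 4 or 5; 1.78% to 4.43% of all genes), 0 to 1 in IP (2.05% to 4.12%), 0 in SPEED Input (0.0492% to 0.329%), 0 in Pol (0.024% to 0.157%) and 0 to 2 in SubPol (0.156% to 0.641%). IP against Input at rest gave 0 to 1 (2.35% to 9.59%). Pol against SubPol gave 4 to 7 with Tregs (34.2% to 37.9%), 3 to 5 untreated (31.3% to 33.2%) and 0 after HHT (1.09% to 6.52%), and the change on stimulation gave 0 to 1 (0.471% to 1.35%). Depth limits Socs2, with 0 to 8 reads in untreated SPEED libraries, and Il2ra, with 2 reads in 1 of them.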
